A study of Arabidopsis thaliana with 6 samples.

Results

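The chromatin immunoprecipitation followed by sequencing (ChIP-seq) of ATH1-GFP gave 349 regions that were covered by peaks of exactly 2 of the 3 ATH1-GFP libraries and by no wild-type peak. They were chosen from the deposited peak lists as stretches under peaks of at least 2 ATH1-GFP libraries, of which there were 1185. A stretch was dropped if any base lay under peaks of all 3, which left 494, and dropped again if it overlapped a peak of any wild-type library by at least 1 base, which left 349. The 6 peak lists together covered 2191 separate stretches. Because peak calls chose the regions, the strength and number of their peaks are given as a description, without a test.

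The *ath1-3* mutant carrying *pATH1:ATH1-GFP*, a genomic construct in which the *ATH1* promoter drives ATH1 fused to GFP, gave 3 libraries, and wild-type plants without GFP gave 3 more. Chromatin of both groups was pulled down with anti-GFP microbeads, and all libraries came from seedling shoots from which leaves and roots had been taken off. The ATH1-GFP plants were a single transgenic line, and signal of the tagged protein can come only from cells in which the *ATH1* promoter is active. The wild-type libraries, without GFP, also gave peaks, so part of the signal does not depend on the tagged protein. The labels give 2 wk of growth with 16 h of light, 1 to 2 g of seedlings per replicate and Landsberg *erecta* as the wild type, whereas the methods describe older plants in short days, and both the methods and the description of the series give Columbia as the wild type. If the labels hold, accession and transgene differed together between the groups and their effects cannot be told apart.

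ATH1 belongs to the BELL group of homeodomain proteins, which bind DNA as partners of the KNOX homeodomain proteins such as STM. In *Arabidopsis*, BELL and KNOX proteins maintain the shoot meristem and mark the boundaries between the meristem and new organs. ATH1 restricts stem growth in the rosette. Immunoprecipitation of a tagged factor enriches the DNA near the places where it sits, and a peak caller reports a stretch only where the pile of tags (mapped reads) passes a threshold in that library.

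After the removal of repeated tags, the ATH1-GFP libraries held 10194418 to 15584829 tags and 1029 to 1634 peaks, and the wild-type libraries held 3450182 to 13518524 tags and 361 to 688 peaks. Wild-type replicate 1 had the fewest tags, so the lack of a peak in it says least. ATH1-GFP replicate 3 was the deepest of its group, with the smallest number of peaks.

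Most of the 349 regions came from a single pair of libraries. Replicates 1 and 2 shared 235 (67.3%), replicates 1 and 3 shared 71 (20.3%), and replicates 2 and 3 shared 43 (12.3%). Replicate 1 thus had a peak in 306 of them, replicate 2 in 278 and replicate 3 in 114. The 494 stretches before the comparison with the wild type were split in the same order, with 333, 105 and 56, of which 98, 34 and 13 lay over a wild-type peak. The share free of wild-type peaks was 70.6% of the stretches in exactly 2 libraries, beside 43.1% of the 743 regions in all 3. With the groups exchanged, 309 stretches lay in exactly 2 wild-type libraries and 42 of them (13.6%) overlapped no ATH1-GFP peak. Of these 42, 28 came from wild-type replicates 2 and 3, 11 from replicates 1 and 3 and 3 from replicates 1 and 2. The wild-type libraries had fewer peaks and, in replicates 1 and 3, fewer tags than every ATH1-GFP library, and the part of depth in this difference was not tested.

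The regions had a median length of 317 nt, with the central 50% of them between 273 and 362 nt and a range from 1 to 1233 nt. The fold enrichment of a peak, the ratio of tags piled up at its summit to the background of the same library, averaged over both libraries, had a median of 2.06 (range 1.28 to 3.58). In the 320 wild-type-free regions in all 3 ATH1-GFP libraries the median was 2.27 and the highest value 6.65. These means are not of the same libraries, because every region in all 3 includes replicate 3, whose values were lower, and 235 of the 349 do not. Within a library, 56 of 306 peaks (18.3%) in replicate 1, 52 of 278 (18.7%) in replicate 2 and 16 of 114 (14.0%) in replicate 3 lay above the median of the regions in all 3.

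Within each library, the peaks of the regions in exactly 2 libraries lay between those seen once and those seen in all 3. In replicate 1 the median fold enrichment was 2.04 for wild-type-free peaks of that library only, 2.12 for regions in exactly 2 and 2.54 for regions in all 3. The corresponding medians were 2.00, 2.12 and 2.40 in replicate 2, and 1.76, 1.79 and 1.95 in replicate 3. The central 50% of values ran from 1.96 to 2.40 for the regions in exactly 2 and from 2.20 to 3.12 for those in all 3 in replicate 1, so the classes were not separated by strength. Values in replicate 3 were lower in each class, with a highest fold enrichment of 2.23 in a region in exactly 2 libraries, compared with 3.99 in replicate 1 and 3.46 in replicate 2.

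**Figure D1:**
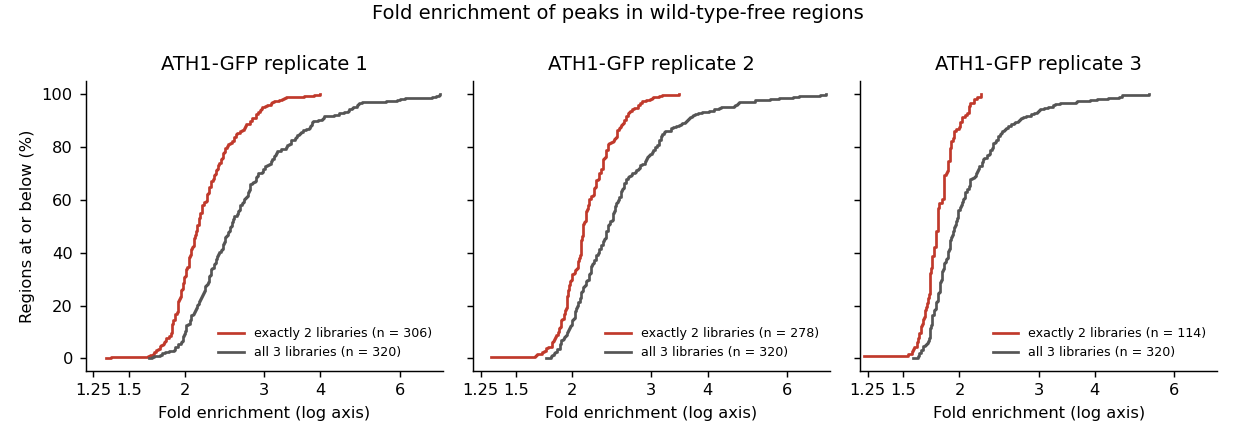
Cumulative share of regions (percent, vertical axis) by fold enrichment of their peak (log axis) in each ATH1-GFP library, for wild-type-free regions in exactly 2 libraries (red) and in all 3 (grey). The red curves lie to the left in all 3 panels, with medians of 2.12, 2.12 and 1.79 against 2.54, 2.40 and 1.95, and the curves overlap.

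A false-discovery rate below 0.001, which is −log10 q above 3, was reached by both peaks in 322 regions (92.3%), beside 96.9% of all ATH1-GFP peaks taken singly (97.5%, 96.7% and 96.2% in replicates 1, 2 and 3). The lower of the 2 values of −log10 q had a median of 5.41 and ran from 2.08 to 21.6, and it passed 10 in 35 regions.

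When the wild-type-free peaks of each library were ordered by fold enrichment and divided into 4 classes of equal number, the share found in both other libraries rose from 7.60% to 64.3% in replicate 1, from 19.6% to 72.8% in replicate 2 and from 34.5% to 92.0% in replicate 3. The share found in 1 other library moved less. In replicate 1 it was 25.1%, 30.8%, 30.8% and 21.7% from the weakest class to the strongest. In replicate 2 it was 40.2%, 41.0%, 35.5% and 25.0%, and in replicate 3 it was 24.5%, 19.6%, 22.5% and 7.25%. Peaks shared with 1 other library were therefore present in every class, and in each library the strongest class held the smallest share of them.

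**Figure D2:**
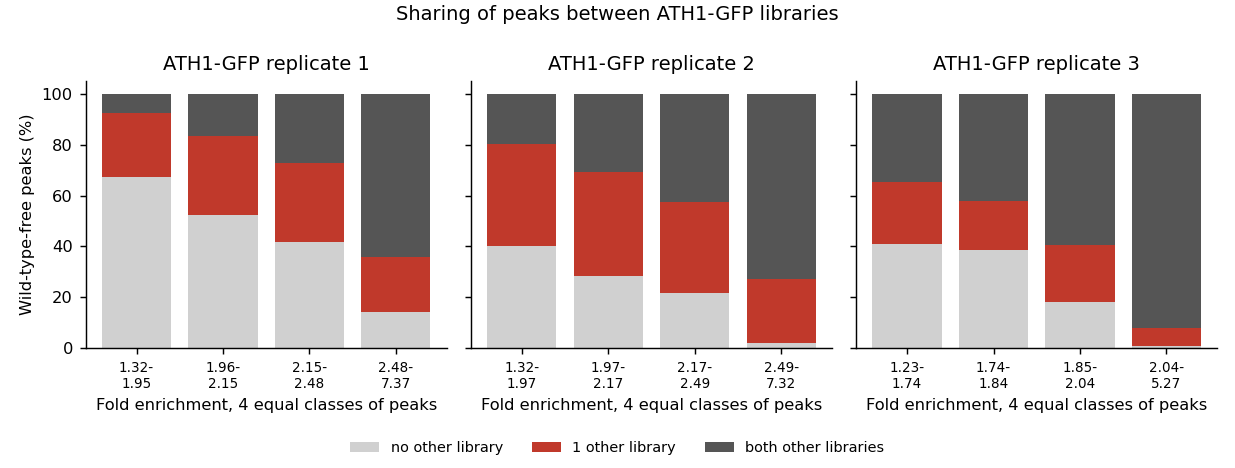
Share of wild-type-free peaks (percent) that overlapped a peak of no other, 1 other (red) or both other ATH1-GFP libraries, in 4 equal classes of fold enrichment for each library. Red falls from 25.1% to 21.7% between the weakest and strongest classes of replicate 1, from 40.2% to 25.0% in replicate 2 and from 24.5% to 7.25% in replicate 3, while dark grey rises.

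The remaining ATH1-GFP library usually had no peak nearby. Its nearest peak was at a median distance of 21355 nt and was at least 5000 nt away for 244 regions (69.9%), and it lay less than 300 nt away for 28. The nearest wild-type peak was at a median of 41383 nt, at least 5000 nt away for 268 regions and less than 300 nt away for 25. In 22 regions a contributing peak met a wild-type peak outside the region, and in 17 it reached into a stretch under all 3 libraries. The regions are not independent of each other in every case, since 20 of them shared a peak with another.

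The rule sits on single bases at its edges. Just inside it, the remaining library came within 18 nt at 3 regions, 1 beside *AT3G07470* and 2 at *CALS1*, and a wild-type peak came within 1 nt of a region in *HEMA1*, which encodes the enzyme that starts chlorophyll and heme synthesis, within 6 nt of a region at *AT4G16500* and within 7 nt of a region at *AT1G77940*. Just outside it, stretches had as few as 9, 64 and 138 bases under all 3 libraries, and others overlapped a wild-type peak by 5, 23 and 27 bases. Mean fold enrichment was 1.79 to 2.11 in the 6 regions just inside and 1.78 to 2.35 in the 6 just outside, so the values at the border overlapped. Next to *CALS1*, which encodes a callose synthase, a site was divided. The 3 regions at chr1:1660962-1661285, chr1:1661355-1661355 and chr1:1661374-1661701 came from replicates 1 and 2, 2 and 3, and 1 and 3, and the second was a single base long.

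The rule requires the peaks of both libraries to overlap, which limits how far apart their summits can be, but it did not use the position of the summits. The median distance between them was 59 nt, and both summits lay inside the region in 279 cases (79.9%), one in 37 and neither in 33. The distance was 53 nt for replicates 1 and 2, 80 nt for replicates 1 and 3 and 107 nt for replicates 2 and 3. In regions in all 3 libraries the same pairs differed by 45, 53 and 52.5 nt. In the 42 regions of exactly 2 wild-type libraries the median was 198 nt, where peaks were also longer, with medians of 532 to 544 nt over all wild-type peaks against 441.5 to 459 nt in the ATH1-GFP libraries. Summits were within 100 nt of each other in 224 regions (64.2%), and farther apart than 300 nt in 46. No test was made on these distances, because the overlap bounds them and neighboring regions can share a peak.

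**Figure D3:**
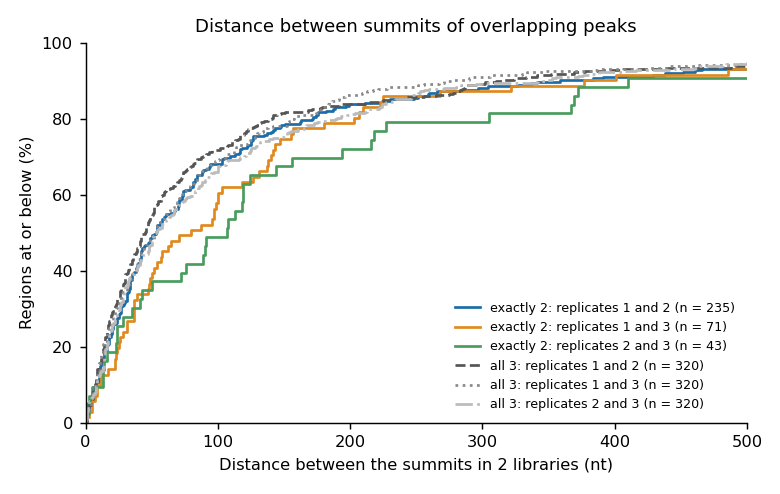
Cumulative share of regions (percent) by the distance in nt between the summits in 2 libraries, for regions in exactly 2 ATH1-GFP libraries (solid lines) and for the same pairs in regions in all 3 (broken lines). The line for replicates 1 and 2 (median 53 nt) runs beside the broken lines (45 to 53 nt), and that for replicates 2 and 3 (107 nt) lies to the right over most of the range.

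The centers of 201 regions (57.6%) lay between annotated genes, 129 (37.0%) within protein-coding genes and 19 (5.44%) within other annotated genes only, most often long noncoding RNAs. The share between genes was 64.4% in the regions in all 3 libraries, 56.6% among peaks of 1 library and 19.0% in the 42 wild-type regions, of which 76.2% lay within protein-coding genes. It differed between pairs, with 56.2% for replicates 1 and 2, 71.8% for replicates 1 and 3 and 41.9% for replicates 2 and 3, the last with 18 of 43 regions. Chromosomes 1 to 5 held 99, 57, 72, 49 and 72 regions.

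**Figure D4:**
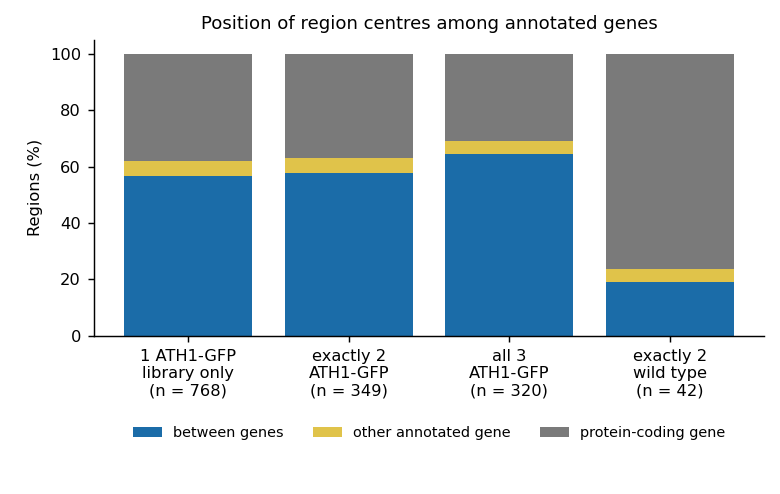
Share of regions (percent) whose center lay between genes, within another annotated gene or within a protein-coding gene, by class of region. Regions in exactly 2 ATH1-GFP libraries (57.6% between genes) lie between peaks of 1 library (56.6%) and regions in all 3 (64.4%), and regions in exactly 2 wild-type libraries stand apart (19.0%).

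The strongest regions were found in replicates 1 and 2. The pair of replicates 1 and 3 entered at rank 48 by mean fold enrichment and the pair of replicates 2 and 3 at rank 125, but this order includes the lower values of replicate 3. When each peak was instead placed by its percentile among all peaks of its own library, the pairs entered at ranks 24 and 79, and the first 10 were again from replicates 1 and 2. The highest value was at chr1:22421862-22422273, between genes and next to *AT1G60900*, with a fold enrichment of 3.99 in replicate 1 and 3.17 in replicate 2 (mean 3.58 ± 0.578, SD, n = 2). Its summits were 12 nt apart. The nearest peak of replicate 3 was 221008 nt away, although this peak stood at the 95.9th percentile of replicate 1 and at the 90.5th percentile of replicate 2.

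The second region, chr1:28354135-28354468, lay within an annotated noncoding RNA next to *SRS5*, which encodes a member of the SHI-related family of zinc-finger transcription factors. Its fold enrichment was 3.88 in replicate 1 and 2.72 in replicate 2 (mean 3.30 ± 0.822, SD, n = 2). The tenth, next to *AT1G75530*, lay 7397 nt from it, with 3.29 and 2.52 (mean 2.90 ± 0.549, SD, n = 2). Both were higher in replicate 1 than in replicate 2, and the nearest peaks of replicate 3 were 34895 and 42626 nt away.

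Between *GPT2*, which encodes a glucose-6-phosphate translocator of plastids, and *BGLU45*, a beta-glucosidase gene, the region at chr1:22829710-22830061 had 3.07 in replicate 1 and 3.46 in replicate 2 (mean 3.26 ± 0.276, SD, n = 2). Next to *ERL2*, a receptor kinase gene of the *ERECTA* family, the region at chr5:2233573-2233966 had 3.24 and 2.80 (mean 3.02 ± 0.308, SD, n = 2). *ROPGAP3*, which encodes a protein that switches off the ROP small GTPases, held a region at chr2:19191542-19191916 inside the gene with 3.35 and 2.67 (mean 3.01 ± 0.477, SD, n = 2). These genes have roles in sugar transport, cell wall precursors and signaling at the cell surface.

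Next to *AT2G06904*, a region at chr2:2805139-2805478 had fold enrichments of 3.10 and 3.00 (mean 3.05 ± 0.0675, SD, n = 2), and next to *AT1G20370*, one at chr1:7054015-7054399 had 3.04 and 2.86 (mean 2.95 ± 0.129, SD, n = 2). The other two of the strongest 10 had no protein-coding gene within 3000 nt. One, at chr1:14824350-14824841, had 2.96 and 3.12 with summits 1 nt apart. The other, at chr2:3663635-3663792, had 3.68 and 2.34 with summits 557 nt apart, a replicate 3 peak 139 nt away and a wild-type peak 119 nt away. These last regions thus differed in how well their libraries matched. Reads in such gene-poor stretches can have more than 1 matching place in the genome, and their placement here was not tested.

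Of the pair of replicates 1 and 3, the strongest regions were at chr5:9358793-9359138, between *AT5G26622* and *AT5G26617*, with 2.90 in replicate 1 and 2.10 in replicate 3, and at chr5:18215602-18215994, next to *BRG1*, with 2.86 and 2.10. The latter was 1560 nt from a peak of replicate 2. Of the pair of replicates 2 and 3, the strongest were in *AT1G28390*, with 2.59 and 1.74, and between *UGP3* and *AT3G56050*, with 2.17 and 2.15. Replicate 1 exceeded replicate 3 in 66 of 71 regions of their pair (93.0%) and replicate 2 exceeded replicate 3 in 37 of 43 (86.0%), while replicate 1 exceeded replicate 2 in 129 of 235 (54.9%). In regions in all 3 libraries the same comparisons gave 96.9%, 92.2% and 66.6%, so replicate 3 had the lower values there as well.

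The weakest 5 regions had mean fold enrichments of 1.28 to 1.68. *GILP* held 2 of them from different pairs of libraries, with means of 1.68 ± 0.0384 for replicates 1 and 2 and 1.68 ± 0.0156 for replicates 2 and 3 (SD, n = 2). The lowest 2 were on chromosome 2, in *AT2G07749* with 1.33 and 1.23 in replicates 1 and 3, and between *AT2G07667* and *AT2G07701* with 1.36 and 1.32 in replicates 1 and 2. The fifth, at chr5:11711486-11711792, had 1.56 and 1.53 in replicates 2 and 3, no protein-coding gene within 3000 nt and a wild-type peak 963 nt away. The stretch of chromosome 2 with the lowest values is known to carry a large copy of mitochondrial DNA. Reads from the copy and from the organelle may not be separable there, which was not tested.

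A gene was taken to lie beside a region if its annotated span held the center of the region or, failing that, if it was the nearest protein-coding gene on either side within 3000 nt. By this measure 326 regions lay beside 437 protein-coding genes, which were 1.59% of the 27444 in the gene table (RefSeq, assembly TAIR10.1), and 134 regions lay beside 2 genes. The regions in all 3 libraries lay beside 431 genes, which were 1.57% of all protein-coding genes. The sets had 28 genes in common, which is 6.41% of the genes beside regions in exactly 2 libraries and 6.50% of those beside regions in all 3. Both shares were above the 1.57% and 1.59% over all genes. The rule keeps the regions apart but not the sites. For 17 regions a wild-type-free region in all 3 libraries lay less than 1000 nt away. In 17 a contributing peak reached into a stretch under all 3 libraries. Some of the genes in common can therefore come from the same site.

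Of 34 genes listed for the shoot meristem and organ boundaries, 4 (11.8%) lay beside a region in exactly 2 libraries, compared with 1.59% of all protein-coding genes. These were *CLV1*, *BLH8*, *CUC3* and *STM*, each found in replicates 1 and 2. A further 10 genes of the list (29.4%) lay beside a region in all 3 libraries, compared with 1.57% of all genes. None lay beside both kinds or beside the 42 wild-type regions. Of all 27444 protein-coding genes, 28 lay beside both kinds and 33 beside the wild-type regions. At such low shares, none would be found in most lists of this size. The list was drawn up with results of these libraries known, so the counts are a description.

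*STM* encodes the KNOX homeodomain protein that keeps shoot meristem cells undifferentiated. Its region lay inside the gene, at chr1:23061488-23061786, with a fold enrichment of 2.37 in replicate 1 and 2.40 in replicate 2 (mean 2.39 ± 0.0209, SD, n = 2). The nearest peak of replicate 3 was 8955 nt away and the nearest wild-type peak 112719 nt away. The libraries thus gave nearly equal values and the third had no peak at the gene.

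*CUC3* encodes a NAC transcription factor that sets organ boundaries. Its region at chr1:28674170-28674473 had 2.52 and 2.54 (mean 2.53 ± 0.0164, SD, n = 2), again nearly equal. *CLV1* encodes the receptor kinase that limits the number of stem cells in response to the CLV3 peptide. Its region at chr1:28467262-28467599 had 3.31 in replicate 1 and 2.09 in replicate 2 (mean 2.70 ± 0.866, SD, n = 2), the widest spread of the 4. *BLH8* encodes a BELL homeodomain protein of the same group as ATH1 itself. The region between it and *CPN60A*, at chr2:11925484-11925778, had 2.87 and 2.26 (mean 2.57 ± 0.435, SD, n = 2). All 4 regions were at least 8955 nt from a peak of replicate 3 and at least 17611 nt from a wild-type peak.

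**Figure D5:**
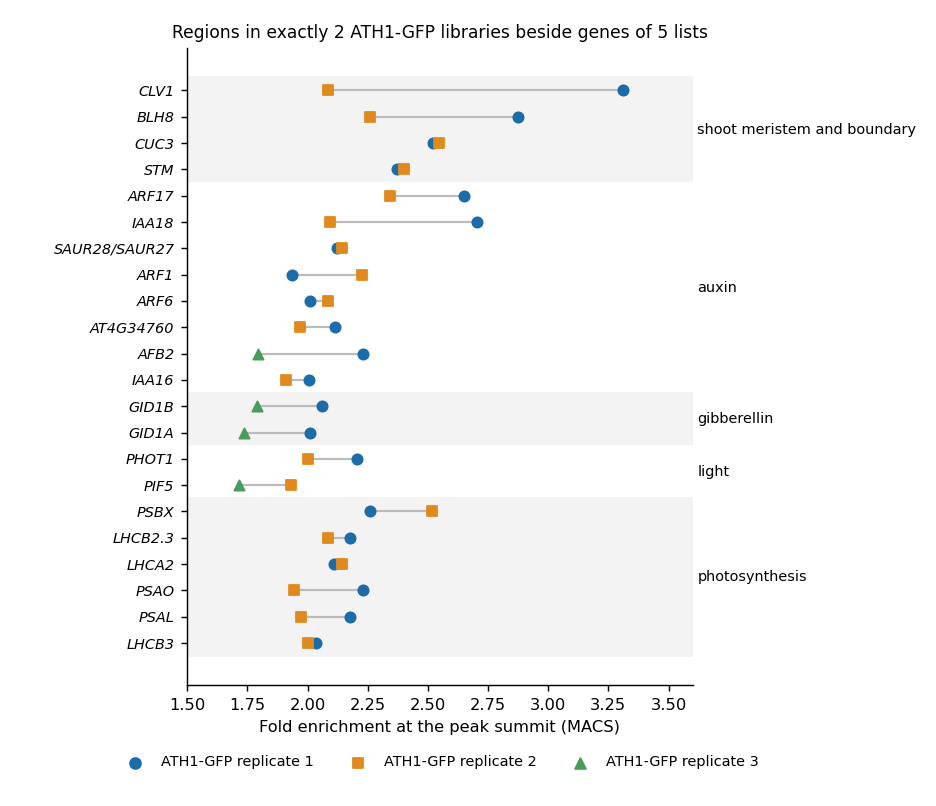
Fold enrichment (horizontal axis) in each contributing ATH1-GFP library, as a symbol for each library joined by a line, for the regions in exactly 2 libraries beside genes of 5 lists. Symbols nearly coincide at *CUC3* (2.52 and 2.54) and *STM* (2.37 and 2.40), and lie farthest apart at *CLV1* (3.31 and 2.09).

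Some homeodomain genes and a gene of hormone synthesis were the nearest gene on a side of a region but lay more than 3000 nt from it. These genes were picked after their values were seen, and no count of flanking genes at such distances is given, so they show no theme. *KNAT1*, a class I KNOX gene, flanked a region at chr4:5155571-5155882 with a fold enrichment of 3.10 in replicate 1 and 2.32 in replicate 2 (mean 2.71 ± 0.553, SD, n = 2), with a replicate 3 peak 4429 nt away. *REV*, an HD-Zip gene that specifies the upper side of organs, flanked one at chr5:24390348-24390690 with 2.24 and 2.57 (mean 2.41 ± 0.235, SD, n = 2), where a replicate 3 peak and a wild-type peak lay 3172 and 3164 nt away. *DWF4*, which encodes an enzyme of brassinosteroid synthesis, flanked one with 2.57 and 2.20 (mean 2.38 ± 0.259, SD, n = 2). *BLH1*, another BELL gene, flanked one with 1.94 in replicate 1 and 1.95 in replicate 3 (mean 1.95 ± 0.00181, SD, n = 2).

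In the auxin list, 9 of 173 genes (5.20%, beside 1.59% of all genes) lay beside a region in exactly 2 libraries. As many lay beside a region in all 3 (1.57% of all genes), and 1 gene, *IAA18*, had both. Auxin response factors bind the promoters of auxin-regulated genes, and Aux/IAA proteins repress them until an F-box receptor removes these repressors. Among the response factors, *ARF17* had 2.65 in replicate 1 and 2.34 in replicate 2, *ARF1* had 1.94 and 2.23, and *ARF6* had 2.01 and 2.09. Of these, *ARF1* lay close to the edge of the rule, with a replicate 3 peak 221 nt and a wild-type peak 247 nt away.

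Among the Aux/IAA genes, *IAA18* had 2.70 and 2.09 in replicates 1 and 2 (mean 2.40 ± 0.431, SD, n = 2), with a replicate 3 peak 165 nt away, and *IAA16* had 2.00 and 1.91. The receptor gene *AFB2* was the member of the list found in replicates 1 and 3, with 2.23 and 1.79. The region between *SAUR27* and *SAUR28* had 2.12 and 2.14 in replicates 1 and 2, and the *SAUR* gene *AT4G34760* had 2.11 and 1.97. *SAUR* genes respond early to auxin and promote cell expansion. They form a family of similar sequences, but the region of *SAUR27* and *SAUR28* lay between the genes. The placement of reads between copies was not tested.

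In the gibberellin list, 2 of 26 genes (7.69%, beside 1.59% of all genes) lay beside a region. Both encode gibberellin receptors, the proteins that bind the hormone and lead to removal of the DELLA repressors. *GID1B* had a fold enrichment of 2.06 in replicate 1 and 1.79 in replicate 3 (mean 1.93 ± 0.192, SD, n = 2). *GID1A* had 2.01 and 1.74 in the same libraries (mean 1.87 ± 0.192, SD, n = 2). The nearest peaks of replicate 2 were 11788 and 70055 nt away. In the regions in all 3 libraries 1 gene of this list (3.85%, beside 1.57% of all genes) was found, so both counts are small.

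The light list had 2 of 35 genes (5.71%, beside 1.59% of all genes) beside a region in exactly 2 libraries. It had 6 (17.1%, beside 1.57% of all genes) beside a region in all 3. *PHOT1*, which encodes a blue-light receptor for phototropism, had 2.20 in replicate 1 and 2.00 in replicate 2 (mean 2.10 ± 0.144, SD, n = 2). *PIF5* (*PIL6* in the gene table), which encodes a bHLH factor that promotes elongation in shade, had 1.93 in replicate 2 and 1.71 in replicate 3 (mean 1.82 ± 0.152, SD, n = 2), with a replicate 1 peak 2985 nt away and a wild-type peak 3047 nt away. The peaks at *PIF5* stood at the 20.0th and 17.4th percentile of their own libraries.

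Of 74 cytokinin and brassinosteroid genes, 2 (2.70%, beside 1.59% of all genes) lay beside a region, both in replicates 1 and 3. *CKX5*, which encodes an enzyme that degrades cytokinin, had 2.45 and 1.66 (mean 2.06 ± 0.561, SD, n = 2). *BES1*, which encodes a transcription factor of the brassinosteroid response, had 2.16 and 1.92 (mean 2.04 ± 0.171, SD, n = 2), with a replicate 2 peak 2497 nt away.

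Of 45 genes listed for photosynthesis, 6 (13.3%) lay beside a region in exactly 2 libraries, compared with 1.59% of all protein-coding genes. Beside regions in all 3 libraries there were 0 of the 45, compared with 1.57% of all genes. At that share fewer than 1 gene of a list of this size would be found. Beside the 42 wild-type regions lay 1 gene of the list, and 33 of all 27444 genes. Without the exclusion of wild-type peaks, 8 genes of the list lay beside a region in exactly 2 ATH1-GFP libraries. The same count was not made for regions in all 3. The exclusion acted unequally, as it kept 43.1% of the regions in all 3 and 70.6% of the stretches in exactly 2. The difference between the classes was not tested. The 6 encode subunits of photosystem II (*PSBX*) and photosystem I (*PSAO*, *PSAL*) and proteins of the light-harvesting antenna (*LHCA2*, *LHCB2.3*, *LHCB3*), and all 6 were in replicates 1 and 2. *PSBX* had the highest values, 2.26 in replicate 1 and 2.52 in replicate 2 (mean 2.39 ± 0.181, SD, n = 2). The other 5 had means of 2.02 to 2.13, near the median of 2.06 over all 349 regions.

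The regions at *PSBX*, *LHCB2.3*, *PSAL* and *LHCB3* had their center inside the gene. The region at *LHCB2.3* was the longest of the 349, with 1233 nt at chr3:10256187-10257419 and fold enrichments of 2.18 and 2.09. This gene has near-identical relatives, and whether reads were divided between copies was not tested. The region at *LHCB3*, whose span overlaps *ATM2* in the gene table, had 2.04 and 2.00 and lay 27 nt from a wild-type peak. For the other 5 genes the nearest wild-type peak was at least 38380 nt away.

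Of 120 genes for jasmonate, ethylene and abscisic acid responses, 6 (5.0%) lay beside a region in exactly 2 libraries and 6 beside a region in all 3. The shares of all genes were 1.59% and 1.57%. Beside the 42 wild-type regions lay 4 genes of the list, and 33 of all 27444 genes. *JAZ5* and *TIFY10B*, which encode repressors of jasmonate responses, lay close to wild-type peaks, at 632 and 199 nt, and *JAZ5* was also beside a wild-type region. Their fold enrichments were 1.90 and 1.87 in replicates 1 and 3 for *JAZ5* and 1.95 and 1.59 in replicates 2 and 3 for *TIFY10B*. The abscisic acid receptor gene *RCAR3* had 2.29 and 1.91 in replicates 1 and 3, and the ethylene response factor genes *ERF8*, *ERF9* and *ERF104* had means of 1.93, 2.01 and 1.97. The region of *ERF104* was 18 nt long and 320 nt from a peak of replicate 3.

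Lists of other transcription factor families and of growth had shares from 2.40% to 7.58% of their genes beside a region, beside 1.59% of all genes. These shares rest on 3 to 5 genes each, and the lowest of them were near that of all genes. Every list used here, the meristem and photosynthesis lists included, had a share above 1.59%, so this was not particular to a list. A search by symbol for HD-Zip and WOX homeobox genes gave 5 of 66 (7.58%), but it also caught other homeobox genes. The highest of the 5, *HB-1* (*AT1G28420*, also *RLT1*) with 2.57 and 2.63, and *HB25*, a zinc-finger homeodomain gene with a mean of 2.34, belong to neither family. *HB-7* (*HDG5*) and *HAT22*, which are HD-Zip genes, had means of 2.32 and 2.06. There were 3 of 72 WRKY genes (4.17%), namely *WRKY12*, *WRKY70* and *WRKY11*, with means of 2.64, 1.94 and 1.76. There were 3 of 100 NAC genes (3.00%), namely *NAC2* with a mean of 2.70 ± 0.173 (SD, n = 2), *CUC3* and *NAC086*. Of 125 MYB genes 3 (2.40%) were found, namely *MYB17*, *MYB15* and *MYB12* with means of 2.16, 2.06 and 2.00. Beside a region in all 3 libraries lay 0 of them, compared with 1.57% of all genes. Genes of the cell wall and cell growth gave 3 of 101 (2.97%), the cyclin gene *CYCD4;1*, the pectin methylesterase gene *PME3* and the xyloglucan transglucosylase gene *XTH9*, with means of 2.34, 2.31 and 2.03. Of this list, 5 genes (4.95%) lay beside a region in all 3 libraries.

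The deposited table of targets lists 629 genes with a window each. By the methods, their peaks had a false-discovery rate below 0.001 in every ATH1-GFP library and in no wild-type library. Of the 349 regions, 39 (11.2%) overlapped a listed window, beside 286 of 320 regions in all 3 (89.4%). Together 313 of 652 such stretches overlapped a listed window (48.0%). As the table required all 3 libraries, this difference follows from how it was made. The 39 regions lay in the windows of 38 genes, and 25 of these windows also held a wild-type-free region in all 3 libraries. In those windows 31 comparisons of a region with a gene were made, and a region in the windows of 2 genes counted for each. The 3 regions at *CALS1* shared peaks and were set against the same region in all 3. In 23 of the 31 comparisons the region in exactly 2 libraries had the lower mean over the same libraries.

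An exception was *TPR1*, which encodes a corepressor of the TOPLESS family, with 2.72 in replicate 1 and 3.02 in replicate 2 (mean 2.87 ± 0.215, SD, n = 2) at chr1:30268557-30268936. The region in all 3 libraries in its window had a mean of 2.23 over the same libraries. *AAP1*, an amino acid permease gene, had 2.93 and 2.60 (mean 2.77 ± 0.232, SD, n = 2), beside 2.71 in the region in all 3. At *AT1G30660* the order was the other way, with 2.72 and 2.64 beside 7.11. These 3 genes were picked after their values were seen, as the strongest regions in listed windows.

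The other 13 genes had no wild-type-free region in all 3 libraries in their window. Why these genes were listed under the authors' criteria was not tested. They were *ARF1*, *GSTF8*, *AT5G42050*, *RDUF2*, *AT1G17620*, *GASA5*, *PPR2*, *ZF2*, *AT5G35735*, *AT4G27657*, *FLA18*, *AT2G24550* and *WRKY11*. The highest mean among them was at *GSTF8*, a glutathione transferase gene, with 2.02 in replicate 1 and 2.82 in replicate 2 (mean 2.42 ± 0.568, SD, n = 2).

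The genes that the study names as bound and *ATH1* itself, 24 in all, were looked up in the same way. *IAA18* was the gene among them that lay beside a region in exactly 2 libraries. *IAA18* was also the nearest gene on a side of a second region, which lay beside *LYK3*, with 2.29 in replicate 1 and 1.91 in replicate 3. *BOP2*, which encodes a regulator of leaf bases and boundaries, was the nearest gene on a side of a region beside *AT2G41380* with 2.11 in replicate 1 and 2.34 in replicate 2, and it lay beside a region in all 3 libraries. *GH3.9*, of the family of enzymes that conjugate amino acids to hormones, neighbored the region in *GSTF8*. *BAM3*, which encodes a receptor kinase of the *CLV1* group, had no peak of any of the 6 libraries within 3000 nt of its span.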

How the data were processed

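Peak lists of 6 anti-GFP ChIP-seq libraries, 3 of ATH1-GFP and 3 of the wild type, were analysed, with a table of 629 target genes. Reads were aligned to TAIR10 (Bowtie2 and SAMtools, per the submitters' processing notes), and the authors ran MACS 2.0.10.20130915 on each library by itself. Per the file headers there was no control library, a q cutoff of 0.05, an extension of tags to 300 nt, a limit of 1 tag per position and an effective genome size of 90000000. No version or settings of the aligner, including how reads with several matches were placed, are given in the sources used here.

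The fold enrichment in the deposited lists is the authors' ratio of the tag pile at the summit to the level expected nearby in that library, as MACS writes it. The deposited −log10 q values are those of the authors' MACS runs, one library at a time. The pileup in the deposited peak tables is a signal not scaled for depth, and was not compared between libraries. From the authors' table only the gene windows were used, and its averages over libraries were not used.

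Regions were found as stretches under peaks of the required libraries, using every deposited peak, with Python 3.11.15, numpy 2.4.6 and pandas 2.3.3. On simulated data 156 of 156 regions were recovered, and bedtools 2.31.1 gave the same 349 of 349 on the real lists. The value of a region is the mean and SD of the fold enrichment of its peak in each library (n = 2). Replicates were separate biological samples per the labels. Genes and symbols came from the RefSeq table of assembly TAIR10.1, in which 620 of the 629 listed loci were found. Of 1258 ends of listed windows, 279 fell exactly at the end of a neighboring gene in this table, on all 5 chromosomes, so positions were taken to match TAIR10. As the table gives no strand, genes within 3000 nt on either side were used in place of the planned upstream and downstream windows. No genome sequence was used, and the planned search for motifs was not made.

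No test was run, because peak calls chose the regions and regions are not replicates. Depth limits which peaks could be called, and counting intervals were not possible without counts outside peaks. The regions and the gene lists were chosen with earlier results of these data known. Genes named are those of the strongest 10 and weakest 5 regions, of the strongest 2 of each pair of libraries, those in the meristem, gibberellin, light and auxin lists, up to 4 of each other list with more given where the text says why, those at the edges of the rule, and those the study names as bound. Alternatives were stricter peaks, other treatments of wild-type peaks, longer overlaps, the lack of a near peak in the remaining library, the narrow peak lists and leaving out each library.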

Additional observations from a re-analysis of the deposited data

How the results depend on the processing

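With stricter peaks in all or only the ATH1-GFP libraries, overlaps of at least 50 nt or 50% of the shorter peak, exclusion by strict or by near wild-type peaks, or the narrow peak lists, the number of regions was between 315 and 353, their median fold enrichment between 2.06 and 2.09, the share between genes between 57.2% and 61.0%, and the meristem and photosynthesis genes at 4 and at 5 or 6. Regions in listed windows, 39 in the report, were fewest with an overlap of 50% of the shorter peak (27) and with near wild-type peaks excluded (30). An alternative chosen after seeing the data, that neither peak meets a wild-type peak anywhere, gave 327 regions, and recomputing the counts for the meristem and photosynthesis lists was also added then. Without the exclusion of wild-type peaks there were 494 regions, of which 50.2% lay between genes and 59 overlapped a listed window. Dropping regions with a peak of the remaining library within 300 nt left 24 in a listed window.

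Leaving out a wild-type library gave 358 to 400 regions. Without an ATH1-GFP library the regions are those shared by both others, which include the regions in all 3, so these values change by construction. Over the 6 libraries left out in turn, the number of regions ran from 358 to 545, the median fold enrichment from 2.05 to 2.32, the share between genes from 53.5% to 65.8%, the regions in listed windows from 40 to 306, the meristem genes from 4 to 14 and the photosynthesis genes from 0 to 8. The highest number, 545, and the highest median, 2.32, came without ATH1-GFP replicate 3, and the 0 photosynthesis genes without ATH1-GFP replicate 1 or 2. Of 61 regions named by their rank or by a gene list, 53 were kept under every alternative that leaves out no library. Regions named only as edges of the rule, by a listed window or by a flanking gene were not followed in this way.

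No paired analysis was possible because no result comes from a test. The motif alternatives were not run, since no genome sequence was used. The mean summit in place of the center put 59.0% of regions between genes.

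The limits are those of peak lists. Tags in a library without a peak were not analysed here, so a region in exactly 2 libraries is one where 2 calls passed. Replicate 3 took part in 114 regions and the wild-type libraries differ in depth, so the number of regions depends on which libraries were made. With 2 values per region, the SD is a coarse measure of error.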
